A study of Mus musculus with 2 samples.

Results

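The miR-148/miR-152 family comprises 3 precursors, miR-148a, miR-148b and miR-152, and thus 6 mature arms, which were picked by name from the 1915 mature miRNAs listed for exosomes of CT26 cells. The arms are mmu-miR-148a-3p, mmu-miR-148a-5p, mmu-miR-148b-3p, mmu-miR-148b-5p, mmu-miR-152-3p and mmu-miR-152-5p. A read was found for 5 of them in at least 1 library, as it was for 336 of all miRNAs. CT26 is an established colon carcinoma line from a Balb/C mouse. Parental CT26 cells were grown in complete DMEM, with exosome-depleted serum during collection. The CT26-SDCSCs, sphere-derived cancer stem cells, were expanded from the same line as spheroids for 2 weeks in serum-free DMEM/F12 with 10 ng/ml EGF, 10 ng/ml bFGF and N2 supplements. Small RNA of 18 to 40 nucleotides was sequenced from the exosomes of each, in 1 library per condition. Cell state, medium and library therefore cannot be told apart, and no difference given here has a replicate check.

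A miRNA is cut from a hairpin precursor as a duplex of a 5p and a 3p arm, and the arm retained by Argonaute guides repression of mRNAs that pair with its seed, bases 2 to 8. The miR-148/miR-152 family acts through its 3p arms, and its best known targets include Dnmt1, which encodes the maintenance DNA methyltransferase. miR-148a is often reduced in tumors of the digestive tract, and the family is widely expressed in epithelial, liver and immune cells.

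The mature sequences of the 3p arms are given first, because the reads fall almost entirely on them and because they decide which members can be told apart. Capitals mark the seed, and the sequences are those of RefSeq on GRCm38.p6, in which all 6 arms were matched by name.
mmu-miR-148a-3p: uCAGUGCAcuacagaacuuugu
mmu-miR-148b-3p: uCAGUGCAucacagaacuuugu
mmu-miR-152-3p: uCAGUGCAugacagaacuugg
All 3 carry the seed CAGUGCA, and 0 other mature miRNAs of the RefSeq table have it at bases 2 to 8. Of the 336 miRNAs with a read, 294 were matched by name in that table, so the search may not cover the rest. Counted from 1 at the 5′ end, miR-148b-3p differs from miR-148a-3p by C9U and U10C. From miR-148a-3p to miR-152-3p the changes are C9U, U10G and U20G, and from miR-148b-3p to miR-152-3p they are C10G and U20G. The members are thus separated by 2 or 3 bases over 21 or 22 compared, which lie outside the seed. How many mismatches the authors allowed in assigning reads is not given in the sources used here. The files list each of the 6 arms once, so none of them is split over several precursors.

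The 5p arms, which came with 3 reads in all, are less alike. They are shown to compare their seeds, again in capitals.
mmu-miR-148a-5p: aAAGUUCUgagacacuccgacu
mmu-miR-148b-5p: gAAGUUCUguuauacacucaggcu
mmu-miR-152-5p: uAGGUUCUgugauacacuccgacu
miR-148a-5p and miR-148b-5p share the seed AAGUUCU, while that of miR-152-5p is AGGUUCU. In the best ungapped alignment, 13 of 22 bases of miR-148a-5p were identical in miR-148b-5p and 15 of 22 in miR-152-5p. Between miR-148b-5p and miR-152-5p it was 19 of 24.

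The precursors lie on 3 chromosomes and are transcribed from separate loci. Mir148a (ENSMUSG00000065505.1) is on the minus strand at chr6:51269812-51269910 (GRCm38). It overlaps no other gene of the GENCODE M21 annotation, and Nfe2l3, at 163 kb, is the nearest protein-coding gene. Mir148b (ENSMUSG00000065560.1) is on the plus strand at chr15:103285125-103285221, within an intron of Copz1. Mir152 (ENSMUSG00000065515.1) is on the plus strand at chr11:96850393-96850465, within an intron of Copz2. Copz1 and Copz2 encode paralogous zeta subunits of the COPI coat of Golgi vesicles, and both are transcribed on the strand of their miRNA. The hairpins below show where the arms, in capitals, sit on each side of the loop.
Mir148a: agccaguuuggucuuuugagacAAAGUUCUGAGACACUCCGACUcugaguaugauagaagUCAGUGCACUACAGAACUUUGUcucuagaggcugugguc
Mir148b: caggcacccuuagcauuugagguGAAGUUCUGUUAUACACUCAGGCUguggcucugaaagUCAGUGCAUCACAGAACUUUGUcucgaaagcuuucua
Mir152: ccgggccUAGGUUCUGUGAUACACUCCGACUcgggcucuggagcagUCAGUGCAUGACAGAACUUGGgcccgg

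The authors deposited RPM, that is reads scaled to 1000000 reads assigned to miRNAs. A single read was worth 27.31 RPM in the parental and 217.77 RPM in the SDCSC library, which gave back 32162 and 3964 reads when each miRNA was taken at its highest entry. All shares below refer to these totals, and their 95% Wilson intervals cover counting error only, since PCR-amplified reads are not independent molecules. A share under 3 reads was treated as below what the depth can show, which is 0.00933% in parental and 0.0757% in SDCSC exosomes. The SDCSC limit is thus the one that decides most comparisons here. The libraries were led by other miRNAs, miR-99b-5p with 12.2% of parental reads and miR-21a-5p with 21.8% of SDCSC reads.

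The family was a minor component of both exosome populations, and miR-148a-3p had the most reads of its arms in each. miR-148a-3p led with 67 reads in parental exosomes (1829.85 RPM), or 0.208% of miRNA reads (95% Wilson interval 0.164 to 0.264%). In SDCSC exosomes it had 11 reads (2395.47 RPM), or 0.277% (0.155 to 0.496%). In parental exosomes 58 of 328 detected miRNAs had more reads than miR-148a-3p, and in SDCSC exosomes 35 of 124 did. It was thus the single member well above the detection limit in both libraries.

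miR-148b-3p followed with 27 parental reads (737.4 RPM), or 0.0840% (0.0577 to 0.122%). It had 5 SDCSC reads (1088.85 RPM), or 0.126% (0.0539 to 0.295%). Its parental interval lies wholly below that of miR-148a-3p, whereas in SDCSC exosomes the intervals of these neighbors overlap. With 5 reads the order of the pair is therefore not resolved in SDCSC exosomes.

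miR-152-3p had 1 parental read (27.31 RPM), or 0.00311% (0.000549 to 0.0176%), and 2 SDCSC reads (435.54 RPM), or 0.0505% (0.0138 to 0.184%). Both counts are under the 3 reads that the depth can show, so no fold change is given for it. Among the 5p arms, miR-148a-5p had 2 reads (54.62 RPM) and miR-148b-5p had 1 read (27.31 RPM) in parental exosomes. miR-152-5p had 0 reads in parental exosomes, for which the upper Wilson bound of the share is 0.0119%. All 3 of these arms had 0 reads in SDCSC exosomes, where the upper Wilson bound is 0.0968% for each.

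**Figure D1:**
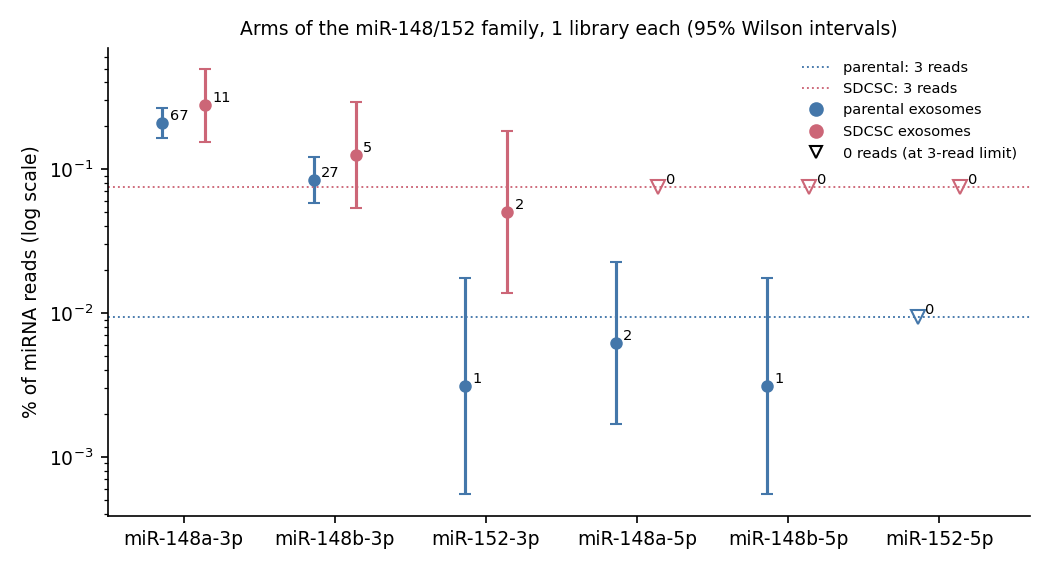
Share of miRNA reads (percent, log scale) of the 6 arms in the parental (blue) and SDCSC (red) library, with 95% Wilson intervals and the number of reads beside each point. Open triangles are arms with 0 reads, drawn at the share of 3 reads (dotted lines), and only miR-148a-3p and miR-148b-3p lie above these lines in both libraries.

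Whether the family holds a larger or smaller share of miRNA reads in exosomes of the stem-like cells was asked by setting the libraries against each other. A share of miRNA reads does not give the amount per exosome or per cell. The shares of miR-148a-3p and miR-148b-3p were somewhat higher in SDCSC exosomes, by amounts within counting error. Without scaling to the library totals, of which the parental is the larger, both log2 ratios turned negative, to -2.61 and -2.43. For miR-148a-3p the log2 ratio of SDCSC to parental share was 0.41 (exact 95% interval -0.66 to 1.34), with 11 reads where the parental share would give 8.26. Fisher's exact test of its reads, two-sided, returned p = 0.363 (adjusted p = 1.0, Benjamini-Hochberg over the 336 miRNAs). For miR-148b-3p the log2 ratio was 0.59 (-1.15 to 1.98), with 5 reads where 3.33 would be given, and p = 0.391 in the same exact test (adjusted p = 1.0). These intervals reach from a lower share to one more than 2-fold higher and do not show that the shares were equal.

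miR-152-3p was the 1 member with an unadjusted p under 0.05. Its 2 SDCSC reads stood against the 0.123 that the parental share would give, and Fisher's exact test returned p = 0.0335 (adjusted p = 0.184). The exact 95% interval of its log2 ratio ran from -0.24 to 9.90 and so includes 0. Thus the difference was not called, and it rests on 3 reads in all.

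Over all miRNAs, a call needed a share at least 1.5-fold apart and an adjusted p under 0.05. By this rule 16 miRNAs, or 4.76% of the 336, were higher in SDCSC exosomes and 31, or 9.23%, were lower, and of the 5 family arms with a read 0 were called in either direction. What is tested is thus this pair of libraries, not the conditions behind them. The depth set what could be called for the family. At the largest p that passed in these data, 0.00547, miR-148a-3p would have needed at least 18 SDCSC reads to be called higher and 0 to be called lower. For miR-148b-3p at least 10 reads would have been called higher, and no count could have been called lower. For miR-152-3p 3 SDCSC reads would have been enough, 1 more than were found. A fall of miR-148b-3p, of miR-152-3p or of the detected 5p arms was therefore not detectable.

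Among miRNAs with at least 10 reads, most leaned the other way. With a minimum of 10 reads summed over the libraries 136 miRNAs were left, of which 37 had a higher share in SDCSC exosomes, and both miR-148a-3p and miR-148b-3p were among these 37. The log2 ratio of miR-148a-3p was exceeded by 28 of the 136 and that of miR-148b-3p by 24. Since the parental library holds most of the reads, this minimum favors miRNAs that are abundant in parental exosomes.

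**Figure D2:**
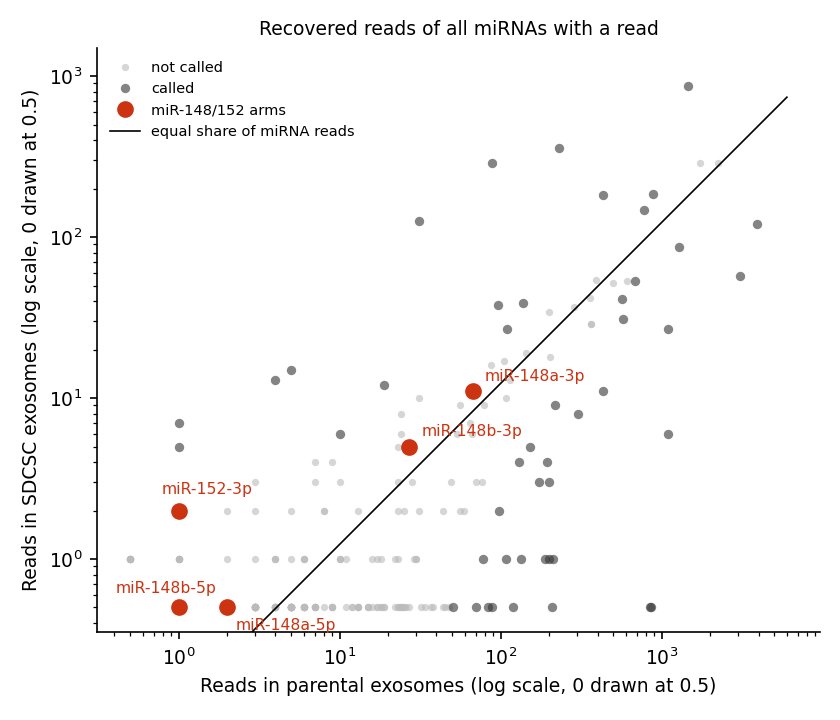
Reads of each of the 336 miRNAs in parental (x axis) and SDCSC exosomes (y axis), both on log scales with 0 drawn at 0.5; dark points were called, and the line marks an equal share in both libraries. miR-148a-3p (67 and 11 reads) and miR-148b-3p (27 and 5 reads) lie just above the line, miR-152-3p (1 and 2 reads) lies farther above it, and miR-152-5p had no read and is not drawn.

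The make-up of the family was next compared, because a ratio of 2 members within a library does not depend on the library total. miR-148a-3p made up 70.5% of the 95 parental 3p reads (95% Wilson interval 60.7 to 78.8%) and 61.1% of the 18 SDCSC 3p reads (38.6 to 79.7%). miR-148b-3p made up 28.4% (20.3 to 38.2%) and 27.8% (12.5 to 50.9%). The ratio of miR-148a-3p to miR-148b-3p was 2.48 in the parental and 2.20 in the SDCSC library, which gives a log2 difference of -0.17 (exact 95% interval -1.98 to 1.84, Fisher's exact test p = 1.0). No change in the proportion of the leading pair was resolved, and the interval is wide enough to hold a 3-fold change either way.

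miR-152-3p made up 1.05% of the parental 3p reads (0.186 to 5.72%) and 11.1% of the SDCSC 3p reads (3.10 to 32.8%). For each read of miR-152-3p there were 67 reads of miR-148a-3p in parental and 5.5 in SDCSC exosomes. That difference had p = 0.0655 in Fisher's exact test (adjusted p = 0.131 over these 2 comparisons) and was not called. The log2 change of the ratio had an exact 95% interval from -9.51 to 0.84.

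Arm use was one-sided. Of the 69 parental reads of the miR-148a precursor 97.1% were 3p (95% Wilson interval 90.0 to 99.2%), and of the 28 parental reads of miR-148b 96.4% were (82.3 to 99.4%). In SDCSC exosomes all 11 reads of miR-148a (lower Wilson bound 74.1%) and all 5 of miR-148b (lower bound 56.6%) were 3p, as were the 3 reads of miR-152 over both libraries. At the parental arm ratio 0.319 reads of miR-148a-5p and 0.179 of miR-148b-5p would be found in SDCSC exosomes, so that a shift of arm use could hardly be seen. Fisher's exact test of arm by library gave p = 1.0 for each of the 3 precursors.

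Dominance of the 3p arm was shared with a minority of other miRNAs. Of the 72 miRNAs with both arms listed under one name and at least 20 parental reads, the 3p arm held more than 50% of the reads in 29 and at least 90% in 24. miR-148a and miR-148b are both among these 24, and miR-152 did not reach 20 reads. Hence the exosomal reads of the family are nearly all of the arm that carries the CAGUGCA seed.

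**Figure D3:**
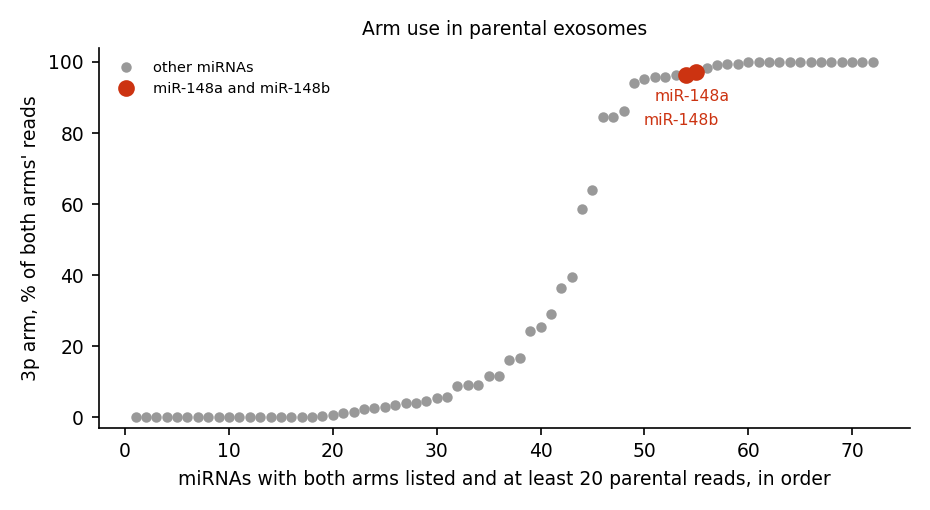
Percentage of reads on the 3p arm in parental exosomes (y axis) for the 72 miRNAs with at least 20 reads over both arms, in ascending order (x axis). miR-148a (97.1%) and miR-148b (96.4%), in red, lie on the upper plateau of 24 miRNAs with at least 90%.

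The family was then set beside other families with several paralogs, namely miR-30, miR-26 and miR-181. All arms of the miR-148/miR-152 family summed to 98 parental reads, or 0.305%, and 18 SDCSC reads, or 0.454%, a log2 ratio of 0.58 (exact 95% interval -0.24 to 1.31). The miR-30 family went from 1372 to 62 reads, a log2 ratio of -1.45 (-1.84 to -1.08). The miR-26 family went from 744 to 60 reads, a log2 ratio of -0.61 (-1.02 to -0.23), and the miR-181 family from 507 to 63 reads, a log2 ratio of 0.01 (-0.39 to 0.39). These sums hide a spread among paralogs. In the miR-30 family the log2 ratio was -1.19 for miR-30a-5p (574 and 31 reads) and -2.27 for miR-30d-5p (430 and 11). For miR-30e-5p (115 and 13) it was -0.12. The miR-26 sum was mostly miR-26a-5p (679 and 53 reads, -0.66), with miR-26b-5p (65 and 7) at -0.19.

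Relative to the miR-30 family, the reads of the miR-148/miR-152 family were higher in SDCSC exosomes by 2.02 on the log2 scale, and the exact conditional 95% interval of this difference, 1.12 to 2.86, excludes 0. Relative to the miR-26 family they were higher by 1.19, with an interval from 0.28 to 2.04 that also excludes 0. Relative to the miR-181 family the difference was 0.56, and the interval, -0.34 to 1.41, includes 0. These differences do not depend on library scaling. In these libraries the summed reads of the family thus differed from those of miR-30 and miR-26, while a change of its own share was not resolved. The comparison families were chosen with earlier results of these data known. The intervals therefore describe these differences and are no independent test of them.

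**Figure D4:**
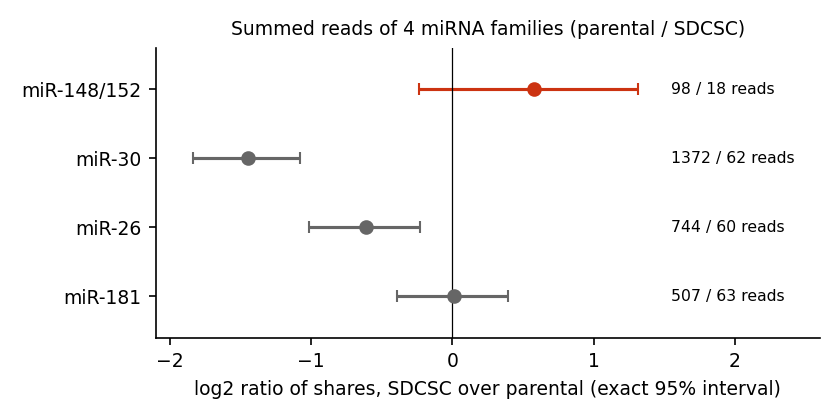
Log2 ratio of the share of miRNA reads, SDCSC over parental exosomes, for the summed arms of 4 families, with exact 95% intervals and the reads of each library at the right. The interval of the miR-148/miR-152 family (red) spans 0 and lies above that of the miR-30 family and, but for an overlap between -0.24 and -0.23, of the miR-26 family.

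Besides the miR-148/miR-152 family, several other miRNAs are known to repress DNA methyltransferases, among them the miR-29 family, which targets Dnmt3a and Dnmt3b. Of 8 such miRNAs outside the family, 8 had a read and 2 were called, both higher in SDCSC exosomes, where 4.76% of all miRNAs were called higher. Many of all miRNAs had too few reads to be called. With at least 10 reads over both libraries, 16 of 136 were called higher. The list was chosen with earlier results of these data known, so its counts are descriptive. miR-29a-3p had 137 parental and 39 SDCSC reads, for a log2 ratio of 1.21 with an exact 95% interval of 0.66 to 1.73 (Fisher's exact test, adjusted p = 0.000174). miR-143-3p, which also targets Dnmt3a, had 888 and 185 reads, for a log2 ratio of 0.76 with an interval of 0.52 to 0.99 (Fisher's exact test, adjusted p = 9.88e-09), and it holds most reads of the list. Members with lower shares were not called, and 3 of them, picked after their values were seen, had at least 10 reads. miR-126a-3p had 37 and 0 reads (upper bound of the log2 ratio -0.23; Fisher's exact test, adjusted p = 0.168), miR-342-3p had 18 and 0, and miR-101a-3p had 11 and 1. The median log2 ratio of the list was 0.89 against 0.21 over all 336 miRNAs, values that the 0.5 reads added to counts of 0 raise for miRNAs of few reads. Among miRNAs with 10 or more reads it was 0.16 over 6 against -1.50 over 136. With SDCSC counts of 0 set to 3 reads, and without miRNAs at or under 3 reads in both libraries, it was 0.76 over 7 against 0.44 over 196. Counts of 1 or 2 were left unchanged there, so these medians mix values set at the limit with measured ones. The reads of the 8 summed to 3.43% of the parental library (3.24 to 3.63%) and 5.78% of the SDCSC library (5.09 to 6.55%), against 0.305% and 0.454% for the arms of the miR-148/miR-152 family.

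The miRNAs nearest to miR-148a-3p in log2 share over the 2 libraries, among 36 others with at least 10 reads in each, were let-7e-5p, let-7d-5p and miR-30e-5p. let-7e-5p had 87 and 16 reads, a distance of 0.66 on the log2 scale. let-7d-5p had 108 and 10 reads (distance 0.70), and miR-30e-5p had 115 and 13 reads (distance 0.82). With 2 libraries this likeness describes levels only.

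The stated origin of the cells was checked with miRNAs of gut epithelium and with those of blood and serum. Of the 8 epithelial miRNAs 3 had a parental and 2 an SDCSC read, and 0 were called. Their reads summed to 55 in parental and 2 in SDCSC exosomes, or 0.171% (0.131 to 0.223%) and 0.0505% (0.0138 to 0.184%), and their median log2 ratio was 0.70, a value that rests on counts near 0. The 5 miRNAs of the miR-200 family among them, which define epithelial cells, were at 0 in parental exosomes and had 2 reads in SDCSC exosomes. Those 2 reads were 1 each of miR-200b-3p and miR-429-3p, under the 3 reads that the depth can show. The other 3 miRNAs of the list had parental reads. miR-192-5p had 48 parental and 0 SDCSC reads, miR-194-5p had 5 and 0, and miR-215-5p had 2 and 0. In parental exosomes of this colon carcinoma line the miR-200 family was therefore at 0 reads, while miR-192-5p was found. In SDCSC exosomes its 2 reads leave the share of the miR-200 family unresolved, at up to 0.184%. Like most of the blood and serum miRNAs below, miR-192-5p had reads in the parental library alone. The source of these reads was not tested.

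Of the 9 miRNAs of blood and serum 8 had a parental read and 1 an SDCSC read, and 4 were called, all lower in SDCSC exosomes, where 9.23% of all miRNAs were called lower. Their reads summed to 2039 and 1, or 6.34% (6.08 to 6.61%) and 0.0252% (0.00445 to 0.143%) of miRNA reads. Their median log2 ratio was -3.04, or -1.85 over 7 with counts of 0 set to 3 reads and a count of 1 left unchanged. miR-486a-5p had 856 and 0 reads, miR-486b-5p had 853 and 0, miR-142a-5p had 213 and 1, and miR-451a had 88 and 0. miR-486a-5p and miR-486b-5p are both counted in the 4 calls and in the medians. They are known to be nearly identical, so that their reads and calls are uncertain as those of separate miRNAs. Counted once, they leave 1186 parental reads for the list, or 3.69% (3.49 to 3.90%). With these 9 left out of the library totals, the log2 ratio of miR-148a-3p was 0.32 and that of miR-148b-3p 0.49. Their part in the family's reads was not otherwise tested.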

How the data were processed

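Small RNA reads had been quality filtered, adapter-clipped and freed of those under 18 nucleotides with Trimmomatic. The authors deposited RPM values of mature miRNAs, with an entry per precursor (build mm10, per the submitters' processing notes); the study names ncPRO-seq and feature-shared counts for exosomal RNA, but whether these made the RPM values, and the miRBase release, is not given in the sources used here. Values times the library total were whole within 0.01 reads for 100.0% of those above 0, which gave 36615 and 4592 reads over all entries. Each miRNA was taken at its highest entry. Shares were compared by two-sided Fisher's exact tests (exact binomial tests under other scalings) with Benjamini-Hochberg adjustment over 336 miRNAs, which called 16 higher and 31 lower. A log-scale test would need replicates. Where 1 library had 0 reads, 0.5 were added to both. Intervals of ratios are exact conditional 95% intervals.

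Named were all family arms, the most abundant miRNA of each library, the 3 nearest to miR-148a-3p, miRNAs of the 3 lists (DNA methyltransferases, gut epithelium, blood and serum) with at least 50 reads, and others with the same seed at bases 2 to 8. Members, lists and families were chosen with earlier results of these data known. The miR-200 family was summarised as defining markers. The other gut miRNAs and single members of the miR-30 and miR-26 families were named after their values were seen, to show the spread within these sets. Sums over members and lists were given intervals but no p. Alternatives were no scaling, median of ratios, TMM of edgeR, totals over all entries, totals without the top miRNAs, sums of entries, added reads, a minimum of 10 reads, a fold of 2 and other sets of arms. Scripts were tested on simulated data. Versions were Python 3.11.15, scipy 1.17.1, numpy 2.4.6, pandas 2.3.3, matplotlib 3.10.9, R 4.3.3 and edgeR 4.0.16. Gene positions are from GENCODE M21 (GRCm38) and sequences from RefSeq (GRCm38.p6).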

Additional observations from a re-analysis of the deposited data

How the results depend on the processing

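No paired analysis was possible because there was 1 library per condition. Without library scaling the log2 ratio was -2.61 for miR-148a-3p, -2.43 for miR-148b-3p and -2.44 for the summed family, and 3 miRNAs were called higher and 134 lower, because this setting moves every log2 ratio by -3.02. Under the other 8 alternatives of scaling, entries and added reads, the log2 ratio stayed between 0.32 and 0.85 for miR-148a-3p, between 0.49 and 1.34 for miR-148b-3p and between 0.48 and 0.86 for the sum, with neither member called. The largest shift among their scalings, 0.15, came from totals without the most abundant miRNAs. The adjusted p of miR-152-3p was between 0.167 and 1.0 over its alternatives. Apart from the setting without scaling, calls numbered 13 to 17 higher and 28 to 36 lower. The miR-148/miR-152 family was also taken at its 3p arms alone, with the other families kept at all arms. It then differed from the miR-30 family by 2.07, from miR-26 by 1.23 and from miR-181 by 0.61, in the same direction as before. With all arms miR-148a-3p made up 68.4% of the family's parental reads. Totals without the blood and serum miRNAs were chosen after seeing the data. The 3964 SDCSC reads limit all results for the family.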

Other observations

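The 7 letters of the family's seed also open a group of miRNAs outside the family, 1 base earlier, at bases 1 to 7. This group was noticed after the values were seen and is given without a test. Of 7 such miRNAs in the RefSeq table, 3 had a read, all of the miR-130/miR-301 family. They are shown with the shared letters in capitals, for comparison with miR-148a-3p.
mmu-miR-130a-3p: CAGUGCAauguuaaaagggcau
mmu-miR-130b-3p: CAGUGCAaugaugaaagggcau
mmu-miR-301a-3p: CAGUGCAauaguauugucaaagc
miR-130a-3p had 153 parental and 5 SDCSC reads, miR-130b-3p had 13 and 2, and miR-301a-3p had 24 and 0. They summed to 190 and 7 reads, or 0.591% and 0.177% of miRNA reads, a log2 ratio of -1.74 (exact 95% interval -3.08 to -0.67). The 3p arms of the miR-148/miR-152 family, which hold the letters at bases 2 to 8, summed to 95 and 18 reads, a log2 ratio of 0.62 (-0.19 to 1.36). The ratios of the 2 groups have opposite signs, and the interval of the miR-148/miR-152 family includes 0.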
